A study of Hyphopichia burtonii with 8 samples.

Results

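The genes described here are those whose RNA was lower in both 1 M salt media than in plain YPD and in 1 M sorbitol, in every library, in the yeast Hyphopichia burtonii. A gene was taken when the highest of the 4 NaCl and KCl libraries was at most 0.67 times the lowest of the 4 sorbitol and YPD libraries and that lowest value was at least 10 FPKM (fragments per kilobase of gene, scaled to the number of fragments in the library). The higher NaCl library also had to exceed 0.6 times the lowest of the 6 other libraries, which left out genes far lower in NaCl than in KCl. Of 6166 genes, 32 met these limits. The copper transporter gene CTR1 and the zinc transporter gene ZRT2 were set aside, as ids that the choice of genes excluded by name, and the other 30 are the set. The genes were thus chosen by their measured levels in all 8 libraries, so that they are low in salt is a description, given without a test. Another 7 ids excluded by name, ERG3 and HSP90 among them, did not meet the limits.

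The cells were strain KJJ43, wild type, from Nuruk, a fermentation starter. Cells from a preculture were kept for 1 h in YPD with 1 M NaCl, in YPD with 1 M KCl, in YPD with 1 M sorbitol, or in YPD alone, the usual rich yeast medium and the control here, with 2 libraries per medium. The labels do not say whether the 2 libraries came from separate cultures, so p-values reflect the scatter of these libraries, which may be technical. At equal molarity a salt that dissociates adds more particles than sorbitol, so the ions and the osmolarity cannot be told apart in these media.

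A symbol was annotated for 15 of the 30 genes. Their roles, given here as background, are known mostly from Saccharomyces cerevisiae. Ergosterol is the main sterol of fungal membranes. Its synthesis ends in a row of enzymes that methylate, isomerise, desaturate and reduce the sterol (ERG6, ERG2, ERG3, ERG5 and ERG4). Yeast cells in high external solute lose water and then build up compatible solutes such as glycerol, while salt also brings in ions that the cell must pump out or store.

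Of the 29 gene lists, sterol synthesis held the most members, 4 of its 27 measured genes. The set as a whole is 30 of 6166 genes, and 15 of the 2355 with a symbol, from which the lists are drawn. The lists were chosen with earlier results of these data known, and the rule has a level limit, so this is a description. ERG6 (sterol methyltransferase), ERG2 (sterol isomerase), ERG5 (a sterol desaturase) and ERG4 (the reductase of the last step) are the 4 on the sterol list. The set also holds ERG251, named after the methyl oxidase that acts earlier in the pathway. ERG2 stood at 113 and 126 FPKM in NaCl, 162 and 157 in KCl, 408 and 334 in sorbitol, and 456 and 334 in YPD. ERG4 stood at 216 and 214 FPKM in NaCl, 407 and 341 in KCl, 886 and 793 in sorbitol, and 913 and 653 in YPD. For both genes the NaCl libraries lay below the KCl libraries, and the sorbitol and YPD libraries overlapped. The values are averages over a culture, so fewer cells with the RNA and less RNA per cell cannot be told apart.

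ERG6 was at 150.5 and 140.2 FPKM in NaCl and 137 and 164 in KCl, against 264 and 282 in sorbitol and 378 and 319 in YPD. It was the sterol gene of the set whose 2 salts overlapped, and its sorbitol libraries both lay below its YPD libraries. ERG5 had 130.1 and 125 FPKM in NaCl, 153 and 158 in KCl, 330.0 and 345 in sorbitol, and 253 and 255 in YPD, with sorbitol above YPD in both libraries. ERG251 had 488 and 458 FPKM in NaCl, 968 and 806 in KCl, 1551 and 1645 in sorbitol, and 1484 and 1468 in YPD. It lay nearest to the NaCl limit of the rule, at 0.605 against 0.6. In NaCl the 5 genes kept 27.5% (ERG4) to 50.3% (ERG5) of their YPD mean, and in KCl 40.4% (ERG2) to 61.2% (ERG5). When the rule was applied again to rescaled libraries, ERG2 was the one of these 5 genes that met it both with equal sums and under quantile normalization. ERG4 met it with equal sums alone, ERG5 under quantile normalization alone, and ERG6 and ERG251 under neither. Whether ERG251 and ERG25, which bear the name of the same enzyme, are alike enough to share reads was not analysed here.

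**Figure D1:**
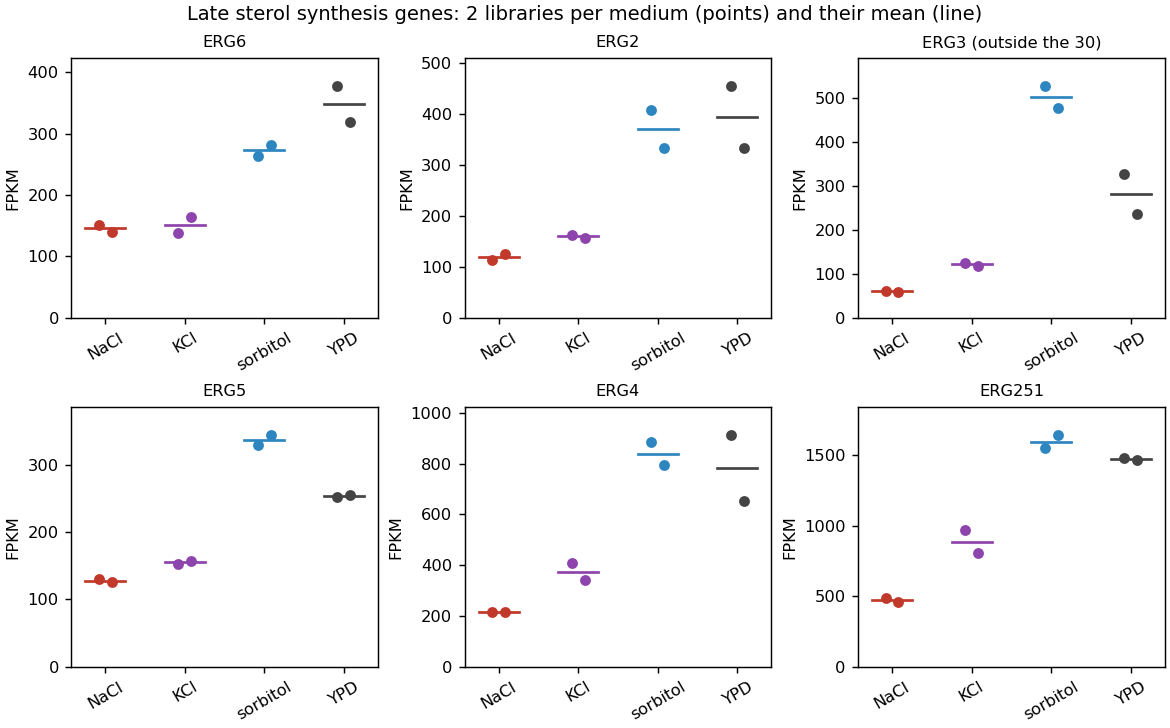
FPKM of 6 sterol synthesis genes (vertical axes, each from 0) in NaCl, KCl, sorbitol and YPD. Points are the 2 libraries of a medium and lines their mean. ERG6, ERG2, ERG5, ERG4 and ERG251 lie lower in both salts than in sorbitol and YPD. ERG3, outside the 30 genes, has a mean of 59.5 FPKM in NaCl, 121 in KCl, 502 in sorbitol and 281 in YPD, with sorbitol the highest.

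ERG3, the sterol desaturase between ERG2 and ERG5, met the ratio limit at 0.530 but not the NaCl limit (0.513 against 0.6). UPC2, a transcription factor of sterol genes, and HEM13, a haem synthesis enzyme placed on the sterol list, failed in the same way. UPC2 had 22.7 and 22.9 FPKM in NaCl, 48.4 and 48.5 in KCl, 131 and 148 in sorbitol, and 98.4 and 91.5 in YPD. Of the other 23 tested genes on the sterol list, these were the 3 with a ratio at or below 0.67, and the median ratio of the 23 was 0.934.

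The rest of the sterol list, tested with limma on log2(FPKM + 1) over all 5765 genes that reached 1 FPKM in 2 libraries, fell more in NaCl than in KCl by count. In NaCl against YPD 17 of the 23 fell and 0 rose (0 rose at an unadjusted p under 0.05), where 11.5% of all tested genes fell. The median log2 change of the 23 was -0.59, beside 0.00 over all tested genes. The falls numbered 11 without NaCl 1 or YPD 1, and 10 without NaCl 2. In KCl 4 of the 23 fell and 0 rose (9 fell and 0 rose unadjusted), where 4.51% of all tested genes fell. The median of the 23 was -0.34, beside 0.01. These 4, ERG3, UPC2, HEM13 and ERG24 (a sterol reductase), had all fallen in NaCl as well. ERG3, UPC2 and HEM13 met the ratio limit, which sets both salts against YPD and sorbitol. Their falls in either salt thus follow from values the rule used and are no separate result. The counts in NaCl and KCl and both medians include these genes. ERG24 did not meet that limit (ratio 0.773) and was the only other fall in KCl. The KCl count is therefore not read as above the share of all genes. Without YPD 1 the KCl count was 1, and under quantile normalization it was 8. The count in NaCl was not tested against that in KCl, and both comparisons share the YPD libraries.

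In sorbitol 0 of the 23 fell (0 unadjusted) and 2 rose (5 unadjusted), the squalene epoxidase gene ERG1 (log2 change 0.67 ± 0.12, limma adjusted p = 0.030) and ERG3 (0.85 ± 0.17, limma adjusted p = 0.034). Of all tested genes 1.21% fell and 3.75% rose. The 2 rises were lost without any 1 of the NaCl, sorbitol or YPD libraries, with each library scaled to the same sum, and under quantile normalization (0 rose in each case).

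The next annotated genes act in peroxide defence or in mitochondria, where known. The lists for oxidative phosphorylation and the TCA cycle (0 of 55) and for mitochondrial carriers, import and assembly (0 of 35) held no gene of the set. CCP1, the cytochrome c peroxidase of mitochondria, had 263 and 294 FPKM in NaCl, 315 and 335 in KCl, 659 and 622 in sorbitol, and 812 and 689 in YPD. GPX3, a peroxidase that also senses peroxide in S. cerevisiae, had 52.2 and 71.3 FPKM in NaCl, 72.7 and 62.6 in KCl, 141 and 173 in sorbitol, and 162 and 192 in YPD. CCP1 was lower in NaCl than in KCl in both libraries, while the salts overlapped for GPX3. HSP78, a chaperone of the mitochondrial matrix, had 52.3 and 45.2 FPKM in NaCl, 50.8 and 41.8 in KCl, 83.4 and 121 in sorbitol, and 121 and 155 in YPD. With a sorbitol mean of 74.0% of YPD it had the lowest sorbitol level of the 30 genes relative to YPD. STF2, which in S. cerevisiae is known as a factor bound to the mitochondrial ATP synthase and in survival of drying, had 329 and 421 FPKM in NaCl, 619 and 489 in KCl, 1325 and 1085 in sorbitol, and 1638 and 1278 in YPD.

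Of the other 17 tested genes on the oxidative stress list, which holds CCP1 and GPX3, 7 rose and 3 fell in NaCl (limma, adjusted p under 0.05). In KCl 5 rose and 1 fell by the same test. Of all tested genes 16.0% rose and 11.5% fell in NaCl, and 6.45% rose and 4.51% fell in KCl. The flavohaemoglobin gene YHB1 fell in both salts, by 1.78 ± 0.19 log2 units in NaCl and by 0.88 ± 0.19 in KCl (limma adjusted p = 0.00039 and 0.027). The superoxide dismutase gene SOD1 rose by 1.44 ± 0.13 in NaCl and 0.90 ± 0.13 in KCl (limma adjusted p = 0.00012 and 0.0061). In sorbitol 3 rose and 0 fell (4 and 2 unadjusted), where 3.75% of all tested genes rose and 1.21% fell. With equal sums or under quantile normalization 1 fell in sorbitol. The KCl rises became 3 without KCl 2 and 1 without YPD 1, and the KCl fall was lost without either of these libraries. The sorbitol rises became 1 without NaCl 1, NaCl 2 or sorbitol 2 and with libraries scaled to equal sums, and 0 without sorbitol 1 or YPD 1.

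HSP78 is 1 of 32 measured genes on the heat shock list. Of the other 31, limma called 16 lower in NaCl, 8 lower in KCl and 0 lower in sorbitol (8 unadjusted), where 11.5% of all tested genes were lower in NaCl, 4.51% in KCl and 1.21% in sorbitol. By the adjusted test 0 rose in each of these media, with 2 in NaCl, 1 in KCl and 1 in sorbitol at an unadjusted p under 0.05. The falls in NaCl became 9 without NaCl 1 and 8 without NaCl 2 or YPD 2, and those in KCl 4 without KCl 1, KCl 2 or YPD 2. In sorbitol 6 fell with libraries scaled to equal sums, 4 under quantile normalization and 1 without sorbitol 2. In NaCl 1 rose with equal sums, without KCl 1 or without KCl 2. HSP104, a disaggregase of the cytosol, lay just outside the ratio limit at 0.672.

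Transport of water and metals was represented by AQY1 and CTR2. AQY1, named after the aquaporin water channels, had 291 and 282 FPKM in NaCl, 372 and 321 in KCl, 779.5 and 603 in sorbitol, and 797 and 791 in YPD. The NaCl libraries lay below the KCl libraries, and both sorbitol libraries lay below both YPD libraries. CTR2, a copper transporter that in S. cerevisiae releases copper from the vacuole, had 240.5 and 413 FPKM in NaCl, 461 and 562 in KCl, 1014 and 1389.5 in sorbitol, and 1075 and 1510 in YPD. CTR1, set aside by name, had 166 and 237 FPKM in NaCl, 415 and 388 in KCl, 1253 and 1300 in sorbitol, and 1014 and 965 in YPD.

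Of 28 other tested genes of iron, copper, zinc and haem 8 fell and 3 rose in NaCl, and 7 fell and 1 rose in KCl, by limma. In sorbitol 2 fell and 1 rose. The 28 include CTR1 and ZRT2, set aside by name though they met the limits. They also include HEM13, which met the ratio limit and is counted on the sterol list as well. The rule used the salt levels of these 3 genes, so any fall of theirs in salt is no separate result. Of all tested genes 11.5% fell and 16.0% rose in NaCl, and 4.51% fell and 6.45% rose in KCl. In sorbitol 1.21% of all tested genes fell and 3.75% rose. The KCl falls became 3 without KCl 1, 4 without KCl 2 or YPD 2, and 2 without YPD 1. The NaCl rises became 1 without NaCl 1 or YPD 1. The sorbitol falls became 0 without any 1 of the NaCl or sorbitol libraries or YPD 1, and 1 without YPD 2. The sorbitol rise was lost without sorbitol 1 or YPD 1, and 2 rose under median ratio scaling or quantile normalization. The KCl rises became 2 with a pseudocount of 5 or no filter. Of 9 other tested genes on the glycerol and polyol list, which holds AQY1, 3 fell and 3 rose in NaCl, 0 fell and 1 rose in KCl (3 and 2 unadjusted), and 0 fell and 0 rose in sorbitol (1 and 2 unadjusted). The glycerol falls in NaCl became 1 without NaCl 2, and the rises 1 without NaCl 1 and 0 without NaCl 2 or YPD 1. The rise in KCl was lost without KCl 1 or YPD 1, and 1 fell in KCl without KCl 2 or either sorbitol library.

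The other 4 annotated genes were 2 transcription factors, a splicing helicase and a vitamin enzyme. CBF1, which in S. cerevisiae binds centromeres and the promoters of sulfur amino acid genes, had 60.3 and 55.9 FPKM in NaCl, 88.3 and 84.3 in KCl, 151 and 157 in sorbitol, and 183 and 140.4 in YPD. RBF1, a transcription factor first named in Candida albicans, had 60.1 and 56.4 FPKM in NaCl, 64.1 and 60.6 in KCl, 98.2 and 99.2 in sorbitol, and 107 and 100.4 in YPD. RBF1 was the least lowered in NaCl, at 56.3% of its YPD mean. The helicase gene PRP5 had 19.2 and 16.7 FPKM in NaCl, 23.0 and 21.2 in KCl, 38.3 and 44.6 in sorbitol, and 39.2 and 36.9 in YPD. RIB3, of riboflavin synthesis, had 115 and 106 FPKM in NaCl, 177 and 165 in KCl, 301 and 453 in sorbitol, and 275 and 346 in YPD. Its annotated span shares 81 nt with HYPBUDRAFT_174765, which was at 27.6 to 40.4 FPKM in all libraries but YPD 1 (16.4 FPKM).

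The deepest falls were in genes without a symbol, for which no role is given. HYPBUDRAFT_105838 stood at 8.28 and 18.6 FPKM in NaCl, 23.1 and 21.9 in KCl, 515 and 453 in sorbitol, and 299 and 338 in YPD. Its NaCl mean was 4.22% and its KCl mean 7.06% of the YPD mean, the lowest shares of the 30 genes. HYPBUDRAFT_111734, the most abundant of the set in YPD, had 491 and 567.5 FPKM in NaCl, 750.1 and 670.4 in KCl, 3023 and 2825 in sorbitol, and 4134 and 3420 in YPD. HYPBUDRAFT_157712 had 13.4 and 17.0 FPKM in NaCl, 26.5 and 31.4 in KCl, 479 and 526 in sorbitol, and 123 and 150.1 in YPD. It was low in both salts and high in sorbitol, with YPD between them and no overlap between any 2 media. Its annotated span shares 10 nt with that of CMK1, which had 385 to 554 FPKM in NaCl, 474 to 882 in KCl, 470.5 to 838 in sorbitol and 331 to 696 in YPD, with all media overlapping.

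**Figure D2:**
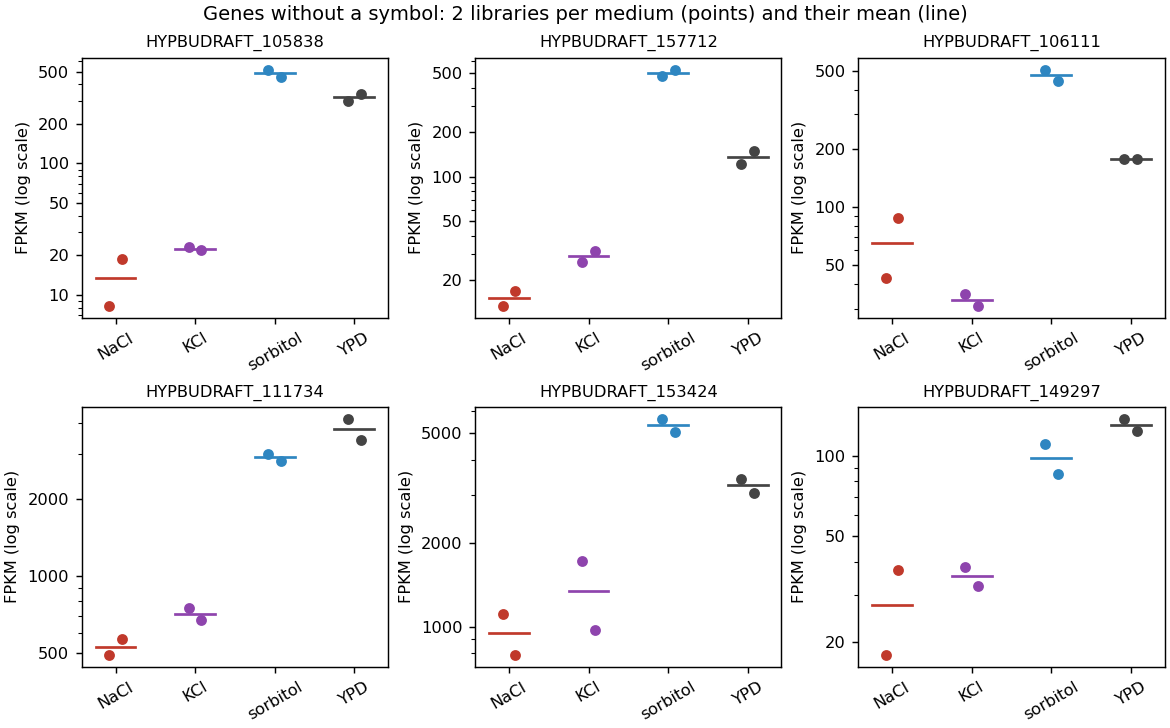
FPKM (log scale) of 6 genes without a symbol in NaCl, KCl, sorbitol and YPD. Points are the 2 libraries of a medium and lines their mean. HYPBUDRAFT_157712 and HYPBUDRAFT_106111 have their highest levels in sorbitol (means 503 and 476 FPKM), and HYPBUDRAFT_106111 is lower in KCl (33.3 FPKM) than in NaCl (65.4 FPKM).

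HYPBUDRAFT_106111 had 43.1 and 87.6 FPKM in NaCl, 35.7 and 31.0 in KCl, 508 and 445 in sorbitol, and 176 and 176 in YPD. It was the single gene of the 30 with both NaCl libraries above both KCl libraries. It overlaps HYPBUDRAFT_192037 by 122 nt in the annotation, and that gene ranged from 14.9 to 25.2 FPKM. HYPBUDRAFT_153424 had 1110.3 and 789.9 FPKM in NaCl, 1724 and 972 in KCl, 5634 and 5041 in sorbitol, and 3428 and 3047 in YPD. Its NaCl and KCl libraries overlapped, and both sorbitol libraries lay above both YPD libraries. HYPBUDRAFT_149297 had 17.9 and 37.2 FPKM in NaCl, 38.1 and 32.5 in KCl, 111 and 85.6 in sorbitol, and 137 and 124 in YPD.

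HYPBUDRAFT_112579 had 254 and 211 FPKM in NaCl, 446 and 395 in KCl, 942 and 1312 in sorbitol, and 1053 and 1016 in YPD. It lies next to PRP5 in the annotation, with no gene between them. HYPBUDRAFT_152368 had 46.9 and 62.0 FPKM in NaCl, 76.8 and 72.5 in KCl, 254 and 264.5 in sorbitol, and 197 and 246 in YPD. HYPBUDRAFT_183475 was among the 5 most abundant, with 886 and 930.4 FPKM in NaCl, 889 and 1083 in KCl, 1873 and 2162 in sorbitol, and 1791 and 1838 in YPD. The remaining 6 genes without a symbol are HYPBUDRAFT_154282, HYPBUDRAFT_108010, HYPBUDRAFT_108640, HYPBUDRAFT_144284, HYPBUDRAFT_151988 and HYPBUDRAFT_105996. Their YPD means ran from 13.2 FPKM (HYPBUDRAFT_105996) to 332 FPKM (HYPBUDRAFT_154282). HYPBUDRAFT_105996 lies 1 gene away from HYPBUDRAFT_106111, and its NaCl libraries (2.68 and 5.83 FPKM) straddled its KCl libraries (4.78 and 5.36 FPKM), below 17.5 and 16.6 FPKM in sorbitol and 11.1 and 15.4 FPKM in YPD.

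**Figure D3:**
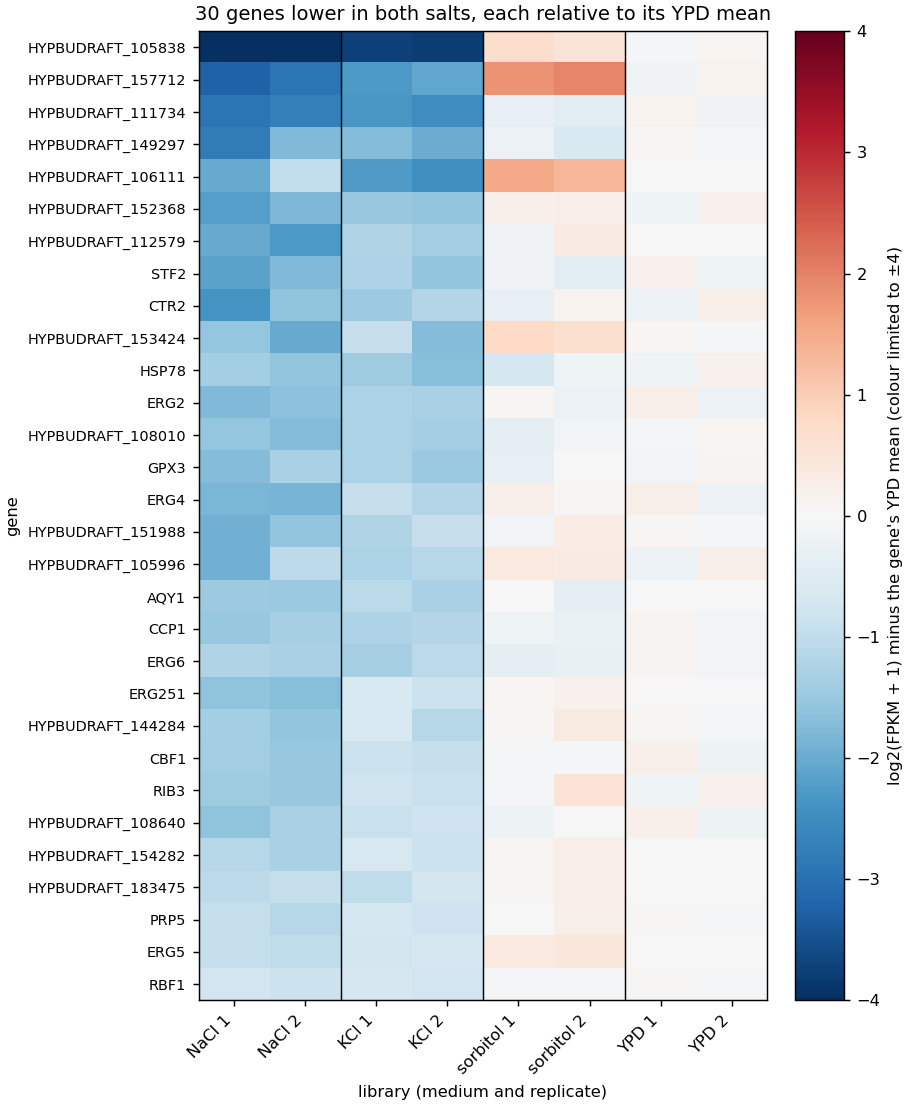
The 30 genes (rows) in the 8 libraries (columns). Colour is log2(FPKM + 1) minus the gene's mean over the 2 YPD libraries, limited to ±4, with blue lower and red higher. All 30 rows are blue in the 4 salt columns, as the rule demands, and HYPBUDRAFT_157712 and HYPBUDRAFT_106111 are the reddest in sorbitol (log2 changes of 1.88 and 1.43 against YPD).

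Across the 30 genes the median log2 change against YPD was -1.51 in NaCl (range -4.56 to -0.82), -1.21 in KCl (-3.76 to -0.71) and 0.10 in sorbitol (-0.44 to 1.88), beside medians over all tested genes of 0.00, 0.01 and -0.04. Against sorbitol it was -1.68 in NaCl and -1.12 in KCl. These comparisons share libraries, and the 4 that set a salt against sorbitol or YPD were used by the rule. The summed level of the 30 genes was 5652 and 5737 FPKM in NaCl, 8370 and 7336 in KCl, 21869 and 21834 in sorbitol, and 20535 and 19117 in YPD. HYPBUDRAFT_111734 and HYPBUDRAFT_153424 alone gave 22.4% to 39.6% of that sum. The total FPKM also differed between libraries. As a share of it the 30 genes made up 0.47% in both NaCl libraries and 0.59% in both KCl libraries. In sorbitol the share was 1.33% and 1.44% and in YPD 1.54% and 1.39%, so these media overlapped. By level in YPD the 30 genes ranked from 91 to 4399 of 6166, with a median rank of 586.5, and the level limit leaves out the low end of that order. Their median gene length was 1081 nt, against 1270 nt over all annotated genes.

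Between the salts most of the 30 genes were lower in NaCl. Both NaCl libraries lay below both KCl libraries in 22 genes (28.9% of all tested genes), above them in 1 (26.9%), and overlapped them in 7. The median log2 difference of NaCl minus KCl was -0.45, beside -0.02 over all tested genes. Because the rule set how far NaCl may lie below KCl and asked for low values in both, this is a description. Among the genes lower in NaCl the gap was widest in HYPBUDRAFT_157712 (KCl 1.90 times NaCl) and ERG251 (1.88 times). ERG6 (1.03 times) and HSP78 (0.949 times, so slightly higher in NaCl) were nearly level.

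**Figure D4:**
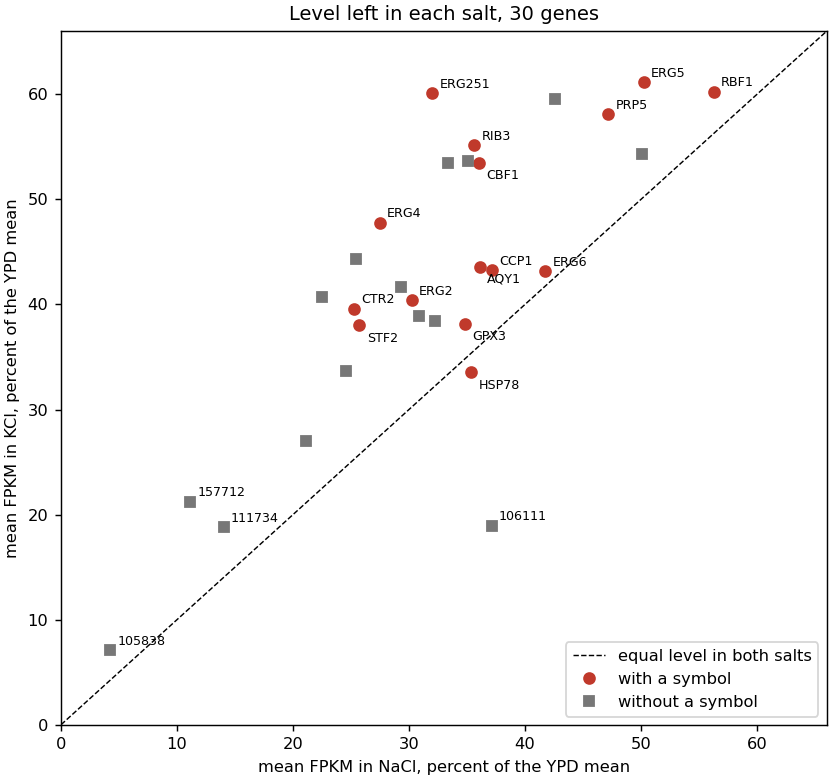
Mean FPKM in NaCl (horizontal) and in KCl (vertical) of the 30 genes, each as a percent of its YPD mean, with a dashed line where the salts are equal. Most points lie above the line, so more was left in KCl than in NaCl. HYPBUDRAFT_106111 (37.1% in NaCl, 18.9% in KCl) and HSP78 (35.4% and 33.5%) lie below it.

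Sorbitol against YPD is the comparison that the rule did not choose on, although it bars either medium from coming near the salt level. Of the 30 genes 2 rose in sorbitol and 0 fell (limma, adjusted p under 0.05; 4 rose and 2 fell unadjusted), where 3.75% of all tested genes rose and 1.21% fell (4.96% in either direction). A count of 2 in 30 is near that background. HYPBUDRAFT_157712 rose by 1.88 ± 0.18 log2 units (95% interval 1.48 to 2.28, limma adjusted p = 0.0054) and HYPBUDRAFT_106111 by 1.43 ± 0.28 (0.78 to 2.07, limma adjusted p = 0.035). The call of HYPBUDRAFT_157712 was lost without YPD 1 (adjusted p = 0.052). That of HYPBUDRAFT_106111 was lost without any 1 of the sorbitol or YPD libraries (adjusted p = 0.077 to 0.17).

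The intervals say how large a change in sorbitol these libraries leave possible. The lower end lay above a 2-fold fall in 29 of the 30 genes (the 2 called ones included), the exception being HYPBUDRAFT_149297 (log2 change -0.42, interval -1.11 to 0.27). It lay above a fall to 0.67 times YPD in 22 of the 30. HSP78 (-0.44, interval -0.94 to 0.05) and STF2 (-0.27, interval -0.72 to 0.18) were among the 8 whose intervals reached below it. Genes that fell to near their salt level in sorbitol could not enter the set, so the rule itself limits both counts. The same counts were not made over all tested genes, so they do not set the 30 genes apart. ERG6 (-0.35, interval -0.68 to -0.01, limma adjusted p = 0.19) and HYPBUDRAFT_111734 (-0.36, interval -0.69 to -0.04, limma adjusted p = 0.16) lay below 0 without passing the adjusted test. ERG5 (0.41, interval 0.14 to 0.67, limma adjusted p = 0.080) and HYPBUDRAFT_153424 (0.72, interval 0.12 to 1.32, limma adjusted p = 0.14) lay above 0 in the same way. Both sorbitol libraries lay above both YPD libraries in 11 genes (26.8% of all tested genes), below them in 8 (29.5%), and overlapped them in 11.

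**Figure D5:**
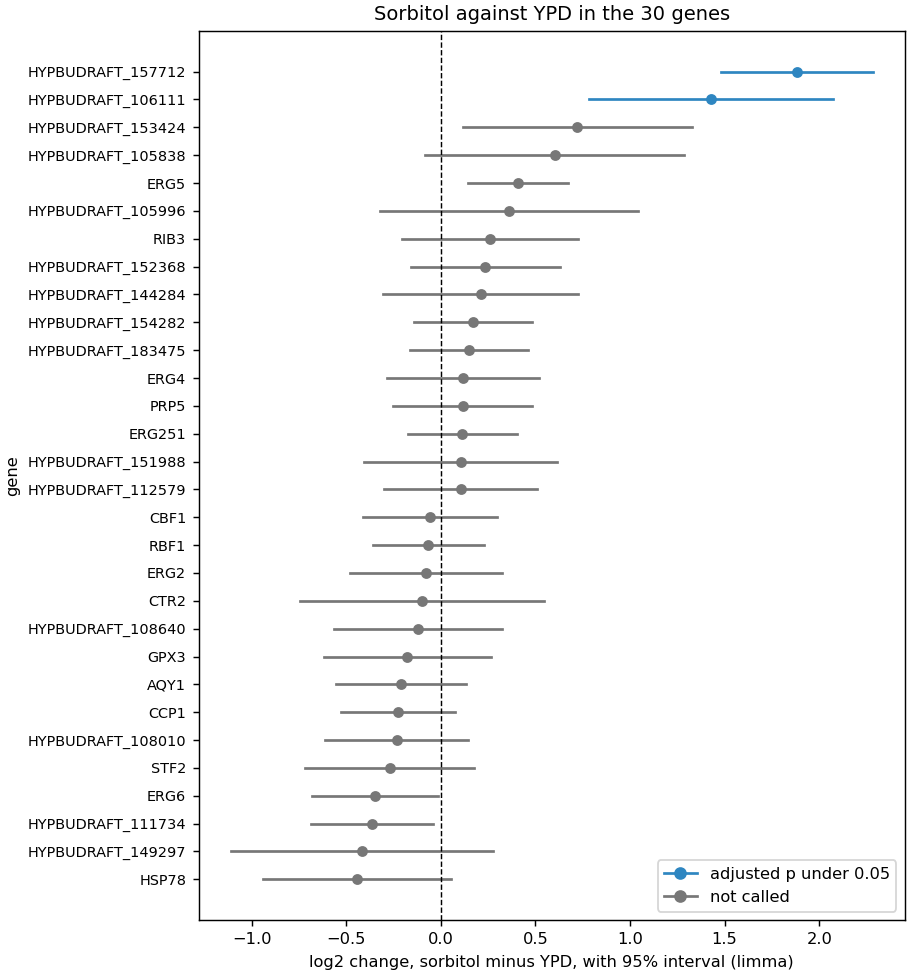
Log2 change in sorbitol minus YPD (horizontal axis) for the 30 genes (vertical axis), with 95% intervals from limma. Blue marks the 2 genes with an adjusted p under 0.05, HYPBUDRAFT_157712 at 1.88 and HYPBUDRAFT_106111 at 1.43. Grey marks the other 28, from -0.44 (HSP78) to 0.72 (HYPBUDRAFT_153424).

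Over all tested genes sorbitol gave 216 rises and 70 falls, which turned to 143 and 246 with libraries scaled to the same sum and to 185 and 107 under quantile normalization. Summed FPKM differed between libraries, from 1197308 in NaCl 1 to 1649003 in sorbitol 1. Scaling to equal sums therefore moved the median of all genes to -0.25 in sorbitol against YPD and 0.16 in NaCl against YPD. With that scaling 16 genes met the rule, 15 of them among the 30. ERG2, ERG4, CCP1, STF2 and AQY1 were the annotated genes among those 15. Under quantile normalization 33 genes met it, 23 of them among the 30. Leaving out KCl 1 raised the number to 66.

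The limits of the rule cut through a continuous range. Just inside the ratio limit of 0.67 were RBF1 (0.653), ERG251 (0.659) and HYPBUDRAFT_144284 (0.664), and just outside were HSP104 (0.672), HYPBUDRAFT_107001 (0.672) and MHP1 (0.673). At the level limit HYPBUDRAFT_144284 (lowest sorbitol or YPD library 20.9 FPKM), HYPBUDRAFT_151988 (14.5 FPKM) and HYPBUDRAFT_105996 (11.1 FPKM) were inside, and HYPBUDRAFT_153354 (9.86 FPKM), HYPBUDRAFT_6757 (6.26 FPKM) and DIT2 (2.85 FPKM) outside. At the NaCl limit of 0.6 ERG251 (0.605), ERG4 (0.632) and HYPBUDRAFT_157712 (0.640) were inside, and OSM1 (0.577), HYPBUDRAFT_126557 (0.565) and HYPBUDRAFT_180195 (0.555) outside.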

How the data were processed

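RNA was measured in 8 libraries of H. burtonii, prepared with NEBNext Ultra II Directional reagents, which mark strand, per the labels' protocols. The files give 1 value per gene, taken as FPKM made by the authors because Cufflinks, with TopHat, is named in the submitters' processing notes, and the deposited values are not whole and have unequal sums. The sources used here do not give versions, genome build, annotation or strand setting, so no position is printed and overlapping genes are named as such.

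The files hold no fragment counts. From the steps between low values, of which 85.9% to 91.7% lay within 0.15 of a whole number (30% if spread evenly), relative depth spanned 1 (KCl 2) to 2.2 (YPD 2). By this estimate each value of the 30 genes rested on at least 11.5 fragments (HYPBUDRAFT_105996), and on at least 148 in all but HYPBUDRAFT_105996, HYPBUDRAFT_151988 and HYPBUDRAFT_105838.

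RefSeq supplied the symbols (assembly Hypbu1, strain NRRL Y-1933) and matched 6157 genes by locus tag, while 9 are listed by symbol. The 30 genes and the 29 gene lists were chosen with earlier results of these data known. The lists with a member among the 30 were sterol synthesis (4), oxidative stress defence (2), heat shock and chaperones (1), iron, copper, zinc and haem (1), and glycerol and polyol metabolism (1). ERG251 is on no list.

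Values were fitted as log2(FPKM + 1) with limma 3.58.1 in R 4.3.3, 4 media in 1 model with an intensity trend (residual degrees of freedom 4, or 8.31 once the prior is added). The 5765 genes with at least 1 FPKM in 2 libraries were tested, all 30 among them because of the level limit. Calls are at a Benjamini-Hochberg adjusted p under 0.05 over all tested genes, and log2 changes are given ± standard error. "Rose" and "fell" are used of such calls. Because 1 FPKM was added, changes of low genes are understated. The fit was tested on simulated data. Genes were named by a rule: the annotated members with the lowest ratio (which took all 15), the 5 members highest in YPD, those called in sorbitol, members on a list, and the 3 genes nearest each side of each limit. Other genes were chosen after their values were seen. Promoter motifs were not analysed here. The alternatives were other pseudocounts, filters, scalings, the replicate number as a block, and each library left out.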

Additional observations from a re-analysis of the deposited data

How the results depend on the processing

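The number of genes meeting the rule was 16 with libraries scaled to equal sums, 8 with a ratio limit of 0.5, 62 with 0.75, and 23 to 66 without 1 library (66 without KCl 1). Members called in sorbitol against YPD, 2 and both higher, became 1 without the intensity trend and 0 to 2 without 1 library (0 without YPD 1, 1 without sorbitol 1, sorbitol 2 or YPD 2). Members called lower in sorbitol, 0 by limma, became 1 with equal sums and 1 under quantile normalization, HYPBUDRAFT_111734 in each case (adjusted p = 0.033 and 0.047), and stayed at 0 without 1 library. All genes called in sorbitol, 286, became 112 without the trend, 20 with the sorbitol and YPD libraries alone, and 4 to 245 without 1 library (4 without YPD 1, 5 without sorbitol 1, 56 and 57 without NaCl 1 and NaCl 2, 127 without sorbitol 2, 190 without YPD 2). The median log2 change of the 30 genes in sorbitol against YPD (0.10) turned to -0.12 with equal sums, -0.089 under quantile normalization and -0.031 without sorbitol 2 (-0.031 to 0.14 without 1 library). The same median in NaCl against YPD was -1.35 with equal sums and -1.64 under quantile normalization (-1.64 to -1.51 without 1 library), and in KCl -1.28 under quantile normalization (-1.25 to -1.14). Against sorbitol it was -1.30 in NaCl with equal sums, -1.37 with a pseudocount of 5 (-1.69 to -1.51), and -0.87 in KCl with equal sums (-1.23 to -1.04). NaCl against KCl gave -0.30 with equal sums (-0.52 to -0.33). The cause of these shifts was not tested. Among changes of single members in sorbitol, fitted gene by gene under 15 alternatives (not without the trend, nor with the sorbitol and YPD libraries alone), 442 values kept their side of the threshold, 5 lost a call and 3 gained one.

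The labels number the libraries 1 and 2 without saying that a number marks a shared culture or day. The deviations of same-numbered libraries from their medium's mean correlated between media at -0.13 to 0.45. With the replicate block 516 genes were called in sorbitol against YPD, and 3 of the 30 (HYPBUDRAFT_153424 was added, adjusted p = 0.042). Among the other genes on the lists, the block gave 4 heat shock genes lower in sorbitol (0 without it) and 1 higher in NaCl (0). It gave 5 metal and haem genes higher in NaCl (3 without it), 4 in KCl (1) and 4 in sorbitol (1), 2 polyol genes higher in sorbitol (0) and 1 oxidative stress gene lower in sorbitol (0). Depth limits HYPBUDRAFT_105996 most.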
